A study of Homo sapiens with 4 samples.

Results

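The genes described here are 34 human genes of the unfolded protein response, of protein folding in the endoplasmic reticulum (ER), of serine synthesis and of KDEL receptor retrieval. They were taken from a list of names drawn up with earlier results of these arrays known, and the probe set with the highest mean level stood for each gene. Of the 34, 31 were measured, meaning that a probe set was assigned to that gene and no other, among 19798 such genes in all. ATF4, SDF2L1 and KDELR2 had none and were not analysed here. RNA levels come from 4 arrays hybridised with biotin-labelled RNA of HCT-116 dicer- cells, a human colon carcinoma line labelled dicer-, after the enzyme that cuts microRNA precursors. All groups share this cell background, and the labels do not say whether the line is 1 clone. Mock transfection was measured on 2 arrays, the miR-124 duplex whose guide strand is intact (G/P) on 1, and the duplex whose guide strand is segmented (G10.12/P) on 1. Both duplexes were used at 10 nM, and all cells were collected at 24 h. The study asked whether the microRNA keeps its activity when its guide strand is cut into segments.

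When unfolded proteins gather in the ER, the sensors IRE1 (ERN1), PERK (EIF2AK3) and ATF6 leave the chaperone BiP (HSPA5) and signal to the nucleus. IRE1 splices XBP1 mRNA, ATF6 is cut to a free transcription factor, and PERK slows translation while favouring that of ATF4. XBP1 and ATF6 drive chaperone and degradation genes, and ATF4 drives amino acid supply, CHOP (DDIT3) and TRIB3. Many ER chaperones end in the residues KDEL, and the KDEL receptors bind those that reach the Golgi and send them back in COPI vesicles.

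The 4 known promoter motifs of these pathways were searched in the RefSeq promoter windows (GRCh38.p14, 250 bases before to 50 after the gene's start, both strands), which held 32 of the 34 genes. The lines below, 5′ to 3′ on the gene's strand, were chosen because they show each motif in a gene whose RNA level is described further on. Capitals mark the letters that the motif fixes, or their complement where the match lies on the opposite strand.
HSPA5: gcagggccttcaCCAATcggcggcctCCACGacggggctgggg
XBP1: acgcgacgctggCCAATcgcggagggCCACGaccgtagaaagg
CRELD2: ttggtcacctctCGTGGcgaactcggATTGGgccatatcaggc
HERPUD1: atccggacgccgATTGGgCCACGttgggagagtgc
HYOU1: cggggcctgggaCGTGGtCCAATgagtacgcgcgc
KDELR3: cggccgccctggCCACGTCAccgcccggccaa
ASNS: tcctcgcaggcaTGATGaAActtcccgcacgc
CHAC1: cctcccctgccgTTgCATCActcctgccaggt

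The sequences of HSPA5 (chr9:125241379-125241421, minus strand), XBP1 (chr22:28800591-28800633, minus strand) and CRELD2 (chr22:49918542-49918584, plus strand) hold the ER stress response element, ERSE, which is CCAAT and CCACG with 9 free bases between them. CRELD2 holds it on the opposite strand. In HSPA5 the match runs from 66 to 48 bases before the start of the gene. Those of HERPUD1 (chr16:56932013-56932047, plus strand) and HYOU1 (chr11:119057262-119057296, minus strand, match on the opposite strand) hold the shorter ERSE-II, which is ATTGG and CCACG with 1 free base between them. ERSE and ERSE-II are bound by ATF6 together with NF-Y. The KDELR3 sequence (chr22:38468038-38468069, plus strand) holds on its opposite strand the unfolded protein response element, UPRE, TGACGTGG, which XBP1 can bind. Its match lies 46 to 39 bases before the start. The sequences of ASNS (chr7:97872457-97872488, minus strand) and CHAC1 (chr15:40953250-40953281, plus strand, opposite strand) hold the C/EBP-ATF response element, CARE, TGATGNAA, which ATF4 binds with a C/EBP partner.

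ERSE was found in 7 of the 32 genes, namely CALR, CANX, CRELD2, HSP90B1, HSPA5, PDIA6 and XBP1, which is 21.9%. It was found in 0.0769% of all 35116 windows and in 0.0916% of all 27305 genes with a window. ERSE-II was found in HERPUD1, HYOU1 and SDF2L1, 9.38% of the 32, against 0.0541% of windows and 0.0696% of genes with a window. UPRE was found in HYOU1 and KDELR3, 6.25% of the 32, against 0.729% of windows and 0.927% of genes. In HYOU1 it overlaps another ERSE-II match than the one printed. CARE was found in ASNS, CHAC1 and HERPUD1, 9.38% of the 32, against 3.62% of windows and 4.46% of genes. None of the 4 motifs was found in the windows of 19 genes, TRIB3, DNAJB9 and DDIT4 among them, which says only that these letters are not in these windows. The motifs were chosen as known ones of these pathways, so their shares in the set are descriptive only.

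Over all probe sets the median intensity lay between 42.6 and 46.3 on the 4 arrays, and the mock arrays correlated across genes with r = 0.997. Of the colon epithelial markers, 9 of 10 were measured and 5 lay above the median gene, with EPCAM at a mock mean of 13.04 on the log2 scale. VIL1, CDX1, LGALS4 and TSPAN8 lay at 2.98 to 3.39 as mock means, and TSPAN8 read 5.17 with the intact and 4.67 with the segmented duplex. With the intact duplex TSPAN8 changed by 1.99, CDH1 by 0.79, CDX2 by 0.69 and KRT18 by -0.52. The other measured epithelial markers changed by -0.16 to 0.34 with it. Summed epithelial marker intensity was 13271 and 13615 in mock, 15239 with the intact and 14734 with the segmented duplex. Leukocyte and endothelial marker sums stayed between 41.6 and 57.4 on every array. The fibroblast sum, carried by COL1A1, was 460 and 377 in mock against 905 and 628, and the neuronal sum 2701 and 2580 against 3369 and 3469. The part of these in the changes below was not tested. DICER1 probe signal was 11.21 and 11.28 in mock, 11.13 with the intact and 10.80 with the segmented duplex, and whether the probes lie in the altered part of the gene is not known here.

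KDELR3, the stress-inducible KDEL receptor, TRIB3, DNAJB9 and HERPUD1 fell with the intact duplex and DDIT4 rose, while the remaining 26 measured genes, the central chaperone HSPA5 among them, did not pass the test. KDELR3 and TRIB3 fell with the segmented duplex too. A gene was called at a limma adjusted p under 0.05 over all genes. With the intact duplex 4 of 31 were called lower and 1 higher, 16.1% in all, against 24.9% of all genes (10.4% lower and 14.5% higher). With the segmented duplex 2 of 31 were lower and 0 higher, 6.45%, against 5.99% of all genes (2.68% lower and 3.31% higher). The unadjusted p was under 0.05 for 8 genes of the set with the intact and 9 with the segmented duplex, against 39.5% and 27.4% of all genes. The set was therefore called no more often than genes at large with the intact duplex, and at about their rate with the segmented duplex.

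By size alone, a gene was counted when its treated array differed from each mock array by 1.5-fold or more in 1 direction. With the intact duplex these were the same 4 lower and 1 higher, against 9.52% lower, 13.7% higher and 23.2% in all among all genes. With the segmented duplex they were DNAJB9, TRIB3 and KDELR3, all lower, against 4.89% lower, 7.37% higher and 12.3% in all. No gene of the set differed 1.5-fold between the mock arrays, against 3.23% of all genes. The mock gap ran from 0.0037 for HYOU1 to 0.47 for CALR on the log2 scale. Without mock 2 the segmented count is 6, with HERPUD1, CHAC1 and PPP1R15A added, and the intact counts are 5 lower, with PPP1R15A, and 2 higher, with CALR.

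The median log2 change over the 31 genes was -0.041 with the intact and -0.10 with the segmented duplex, beside 0.017 and 0.012 over all genes. Without mock 2 the intact median is -0.12. The median size of change, sign aside, was 0.24 and 0.16 in the set and 0.31 and 0.23 over all genes. Over the 19798 genes, not all probe sets, the median log2 level of the intact array lay 0.24 above the mock mean. That of the segmented array lay 0.19 above it. Centring each array on this median lowers every change by these amounts, which are far larger than the median changes of 0.017 and 0.012. Over all probe sets the median intensities were closer, at 44.3 and 42.6 in mock, 46.3 with the intact and 45.3 with the segmented duplex. The 5 intact and 2 segmented calls remained under that centring. Among all genes it turns the split of calls from 58.2% to 32.8% higher with the intact and from 55.2% to 32.1% with the segmented duplex. Each array read the RNA of many cells together, so a lower level in every cell and a loss in some cells cannot be told apart.

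**Figure D1:**
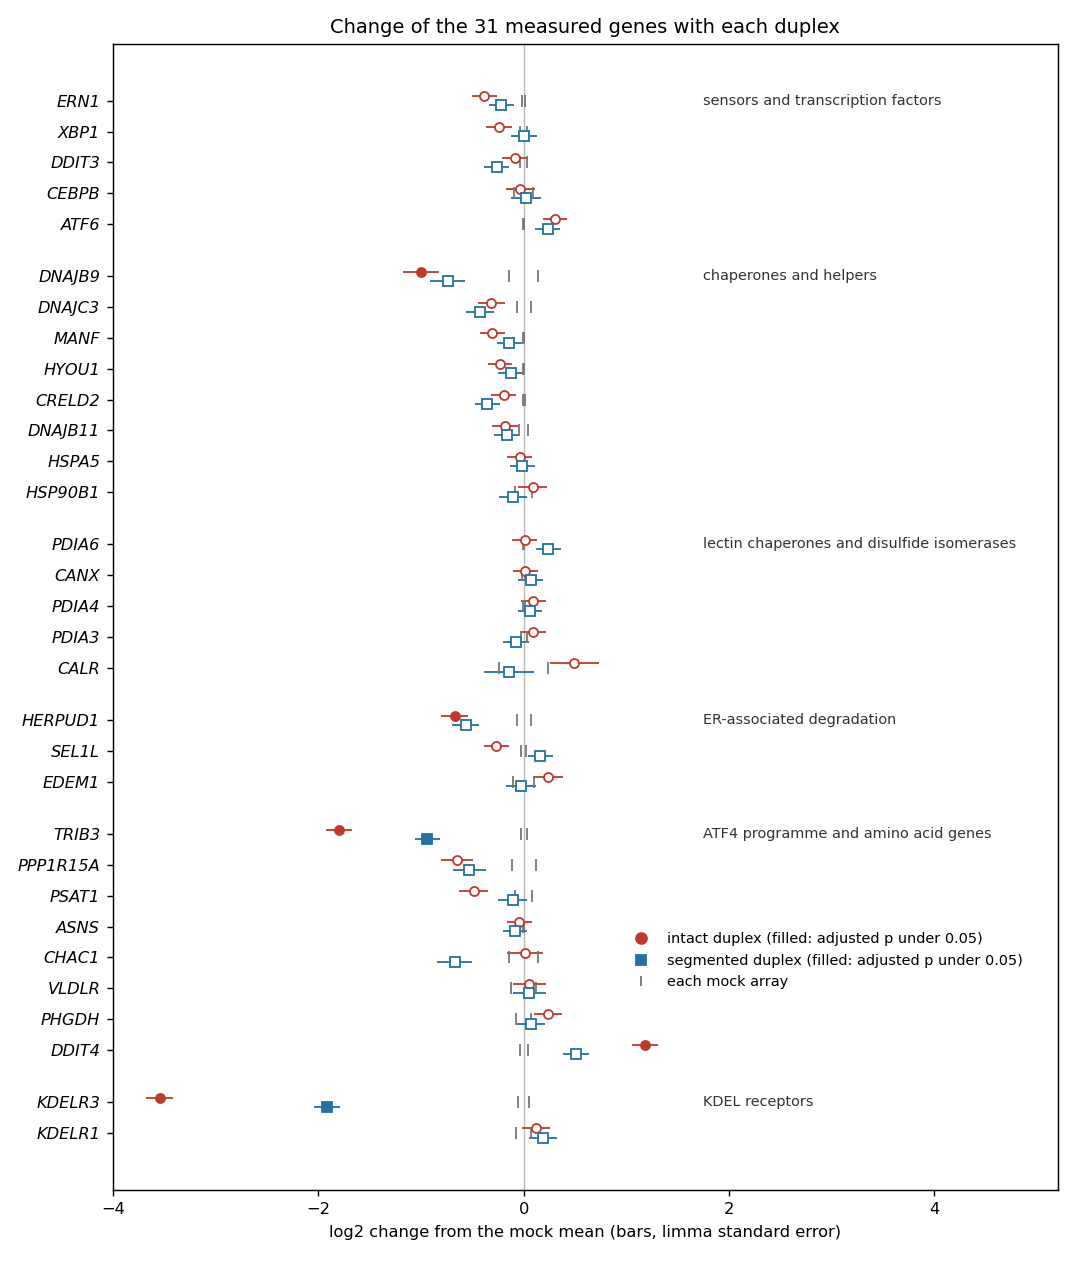
Change in log2 intensity from the mock mean for each of the 31 measured genes, grouped by role, with circles for the intact and squares for the segmented duplex, bars for the limma standard error and grey ticks for each mock array. KDELR3 at -3.54 and -1.92 and TRIB3 at -1.80 and -0.94 stand apart on the left, DDIT4 at 1.18 stands on the right, and filled symbols passed the adjusted p of 0.05.

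KDELR3 showed the largest change of the set, while KDELR1, the other KDEL receptor measured, did not pass. KDELR3 read 10.05 and 10.16 in mock, 6.56 with the intact and 8.19 with the segmented duplex, as log2 intensity. Both treated arrays lay far below the mock pair, and the segmented array lay between the mock pair and the intact array. The fall was 3.54 on the log2 scale with the intact duplex, or 11.7-fold (SE 0.13, adjusted p = 0.00822). With the segmented duplex the log2 change was -1.92, or 3.77-fold lower (SE 0.13, adjusted p = 0.0349). Among all 19798 genes, 5 fell further with the intact and 42 with the segmented duplex.

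The other probe set of KDELR3, annotated to a second RefSeq transcript of the gene, read 8.81 and 8.64 in mock, 7.38 with the intact and 7.74 with the segmented duplex. Its changes were -1.35 and -0.99, in the same direction and smaller, and the mean of both probe sets changed by -2.45 and -1.45. KDELR1, the constitutive receptor, read 12.20 and 12.35 in mock, 12.39 with the intact and 12.46 with the segmented duplex. Its changes of 0.12 and 0.19 were about the size of the mock gap (SE 0.14, adjusted p = 0.581 and 0.451). Both of these turn negative when arrays are centred on their medians, to -0.13 and -0.0061.

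**Figure D2:**
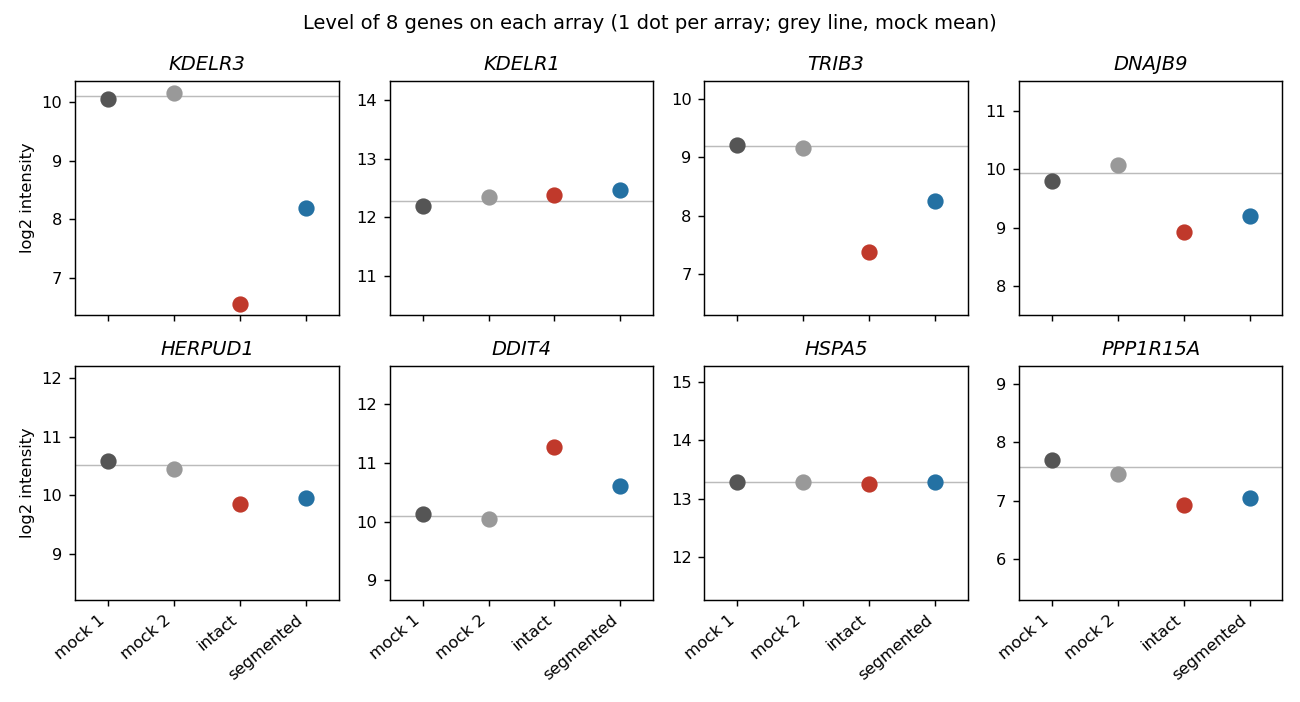
Log2 intensity of 8 genes on each of the 4 arrays, 1 dot per array, with the grey line at the mean of the 2 mock arrays and the same height of scale in each panel. KDELR3 drops from 10.05 and 10.16 to 6.56 and 8.19, DDIT4 rises from 10.13 and 10.05 to 11.28 and 10.60, and HSPA5 stays between 13.25 and 13.29.

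None of the 5 measured sensors and transcription factors passed the test with either duplex. Under some alternatives ERN1, lower, and ATF6, higher, did pass with the intact duplex, as listed in the section on processing below. ERN1, the IRE1 sensor, read 9.13 and 9.16 in mock, 8.76 with the intact and 8.92 with the segmented duplex. Both treated values lie below the mock pair, with changes of -0.38 and -0.22 (adjusted p = 0.0985 and 0.339). With the mean of its 3 probe sets the segmented change is 0.11. Those not used lay at mock means of 4.96, for the one of a RefSeq transcript, and 4.62, against 9.14 for the one used. They changed by 0.10 and -0.094 with the intact and by 0.31 and 0.25 with the segmented duplex. Whether they were above background is not known. ATF6, the sensor that is cut to a transcription factor, read 10.11 and 10.09 in mock against 10.41 and 10.34, both above the mock pair, with changes of 0.30 and 0.24 (adjusted p = 0.153 and 0.304).

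XBP1, the mRNA that IRE1 splices, read 10.36 and 10.44 in mock, 10.16 with the intact and 10.40 with the segmented duplex. It lay below both mock arrays with the intact duplex only, by a change of -0.24 (adjusted p = 0.247). These values do not tell spliced from unspliced XBP1. DDIT3, or CHOP, the factor tied to cell death under lasting ER stress, read 9.72 and 9.65 in mock against 9.60 and 9.42, with changes of -0.084 and -0.26. CEBPB, a C/EBP factor that can pair with ATF4, had treated values of 10.44 and 10.50 between its mock values of 10.57 and 10.38.

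Among the 8 measured HSP70, HSP90 and J-domain chaperones with their helpers, DNAJB9 fell with the intact duplex, while 7 did not pass. DNAJB9, or ERdj4, a J-domain partner of BiP induced by IRE1 and XBP1, read 9.79 and 10.08 in mock, 8.94 with the intact and 9.20 with the segmented duplex. Both treated values lay below the mock pair, which was itself 0.29 apart. The intact change was -1.0 (SE 0.17, adjusted p = 0.0283). The segmented change of -0.74 did not pass (adjusted p = 0.0937). It passes when the dimmest 40% of genes are left out, with a trended and robust prior and with log2(intensity + 16), and its adjusted p over the alternatives runs from 0.000155 to 0.0937.

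HSPA5, or BiP, the main ER chaperone and the usual gauge of ER stress, read 13.29 in each mock sample, 13.25 with the intact and 13.28 with the segmented duplex. Its changes were -0.039 and -0.011, with 95% intervals of -0.38 to 0.30 and -0.35 to 0.33. Its other 2 probe sets changed by -0.068 and 0.30 with the intact duplex, and the mean of all 3 changed by 0.065. DNAJC3, an inhibitor of PERK and a co-chaperone, read 9.56 and 9.43 in mock against 9.18 and 9.07, with changes of -0.32 and -0.43 (adjusted p = 0.175 and 0.149).

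The other 5 chaperones did not pass either, though some did under alternatives listed in the section on processing below. HYOU1, an HSP70 relative that acts with BiP, read 11.64 on both mock arrays against 11.41 and 11.51, and its changes were -0.23 and -0.13. CRELD2, a stress-induced secreted ER protein, read 10.83 and 10.85 in mock against 10.65 and 10.49. MANF, a stress-induced cofactor of BiP, read 12.64 and 12.63 in mock against 12.33 and 12.50, with changes of -0.31 and -0.14. DNAJB11, another J-domain partner of BiP, had changes of -0.18 and -0.16, and HSP90B1, or GRP94, of 0.087 and -0.10.

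Of these 8 chaperone genes 7, all but HSP90B1, lay below both mock arrays with the intact duplex, and all 8 did with the segmented duplex. That count is set beside 39.8% and 37.5% of all genes below both mock arrays. Only DNAJB9 with the intact duplex was called among them, so the count describes these arrays. With the segmented duplex HSPA5 read 13.28 against 13.29 on both mock arrays, and HSP90B1 7.60 against 7.62 and 7.78. Both lay only just below the mock pair. A further HSPA5 probe set lay above both mock arrays with each duplex, and another lay below both. The mean of all probe sets puts HSP90B1 at -0.29 with the intact duplex. Its probe sets not used lay at mock means of 3.77 and 3.53, against 7.70 for the one used. Whether those dim probe sets were above background is not known. HERPUD1, HSP90B1 and PDIA6 have only probe sets annotated to sequences other than a RefSeq transcript. The probe sets used for ERN1, HSPA5, HYOU1, CANX, PDIA3 and SEL1L are annotated in that way too, which makes 9 genes of the set. Each of the latter genes also has a dimmer probe set of a RefSeq transcript, which for HSPA5 is the one that changed by 0.30 with the intact duplex.

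The 5 lectin chaperones and disulfide isomerases did not pass with either duplex. CALR, or calreticulin, which holds newly made glycoproteins, read 7.51 and 7.98 in mock, 8.24 with the intact and 7.60 with the segmented duplex. Its mock gap of 0.47 was the widest of the set, and its intact change of 0.49 had an SE of 0.24 (adjusted p = 0.222). CANX, or calnexin, its membrane-bound relative, read 13.34 and 13.32 in mock against 13.35 and 13.40. The other 3 probe sets of CANX read lower with the intact duplex, by changes of -0.61, -0.51 and -0.39, so its probe sets disagree.

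PDIA3, which acts with both lectins on glycoproteins, changed by 0.094 and -0.074, and PDIA4 by 0.093 and 0.061. PDIA6, an isomerase that also acts on the IRE1 sensor, read 12.07 and 12.06 in mock, 12.07 with the intact and 12.31 with the segmented duplex. Its segmented change was 0.24. With the intact duplex all 5 lay above both mock arrays, against 44.0% of all genes, and 3 did with the segmented duplex, against 42.0%, but the intact signs of CANX, PDIA3, PDIA4 and PDIA6 turn when arrays are centred on their medians.

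Of the 3 ER-associated degradation genes, HERPUD1 fell with the intact duplex. HERPUD1, a stress-induced membrane protein of the ligase complex that passes misfolded proteins to the proteasome, read 10.58 and 10.45 in mock, 9.84 with the intact and 9.95 with the segmented duplex. Both treated values lay below the mock pair, close to each other. The intact change was -0.67, or 1.59-fold lower (SE 0.13, adjusted p = 0.0377), and the segmented change of -0.57 did not pass (adjusted p = 0.0953). The segmented change of HERPUD1 passes under the same 3 alternatives as that of DNAJB9 and after centring, with an adjusted p from 0.000349 to 0.0953 over the alternatives. Only 1 probe set was assigned to HERPUD1, and the same holds for DNAJB9 and TRIB3, so none of these falls could be compared with another probe set.

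SEL1L, the adaptor of the same ligase complex, read 11.75 and 11.81 in mock, 11.52 with the intact and 11.94 with the segmented duplex. It lay below both mock arrays with the intact and above both with the segmented duplex, by changes of -0.26 and 0.16 (adjusted p = 0.203 and 0.46). All 4 of its probe sets read lower with the intact duplex, by -0.76 to -0.24, and 3 of 4 read higher with the segmented duplex. The segmented change turns to -0.030 when arrays are centred. EDEM1, a lectin that marks glycoproteins for degradation, had changes of 0.24 and -0.025 beside a mock gap of 0.20.

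**Figure D3:**
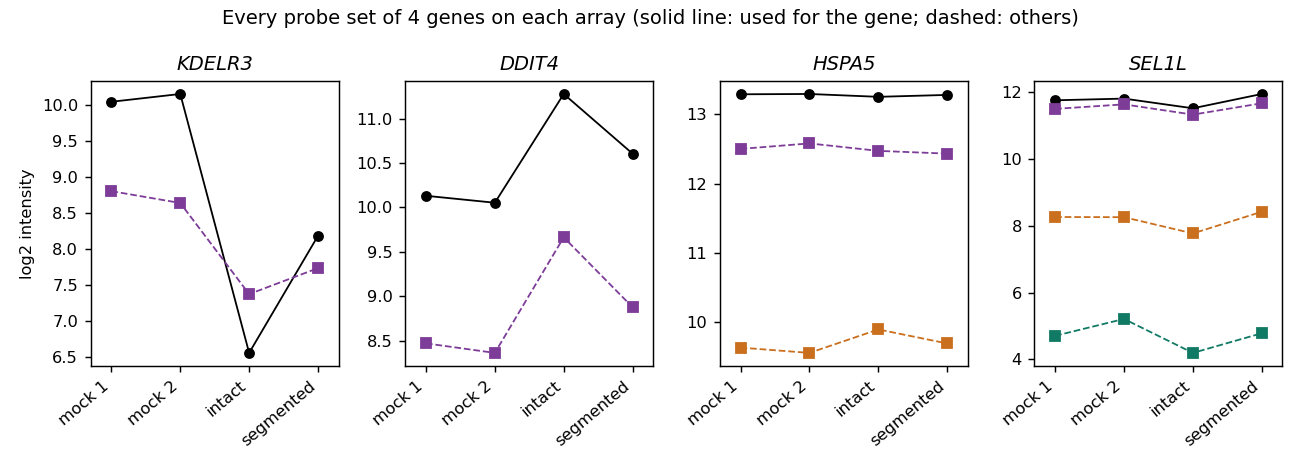
Log2 intensity of every probe set of 4 genes on each of the 4 arrays, with the solid line for the probe set that stands for the gene and dashed lines for the others. Both probe sets of KDELR3 fall and both of DDIT4 rise with each duplex, while the 3 probe sets of HSPA5 change by -0.068 to 0.30 with the intact duplex and all 4 of SEL1L dip with it.

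Of the 8 genes of the ATF4 programme and amino acid supply, TRIB3 fell with both duplexes and DDIT4 rose with the intact duplex. TRIB3, a pseudokinase induced by ATF4 and CHOP that restrains AKT, read 9.22 and 9.16 in mock, 7.39 with the intact and 8.25 with the segmented duplex. The mock arrays lay 0.058 apart and both treated arrays well below them. The intact change was -1.80, or 3.48-fold lower (SE 0.12, adjusted p = 0.00829). The segmented change was -0.94, or 1.91-fold lower (SE 0.12, adjusted p = 0.0430).

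DDIT4, or REDD1, an inhibitor of mTORC1 that stress and p53 also induce, read 10.13 and 10.05 in mock, 11.28 with the intact and 10.60 with the segmented duplex. It was the one gene of the set that rose past the test, by 1.18 or 2.27-fold with the intact duplex (SE 0.12, adjusted p = 0.0122). The segmented change of 0.51 did not pass (adjusted p = 0.0997). It passes under the same 3 alternatives as that of DNAJB9, and its adjusted p over all alternatives runs from 0.000457 to 0.179. Its other probe set read 8.47 and 8.36 in mock against 9.66 and 8.88, with changes of 1.25 and 0.46.

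The other 6 did not pass, though some did under alternatives, given here or in the section on processing below. PPP1R15A, or GADD34, which brings a phosphatase to eIF2 alpha and so ends the PERK signal, read 7.69 and 7.46 in mock against 6.93 and 7.04, with changes of -0.65 and -0.53 (adjusted p = 0.0587 and 0.138). The intact change of PPP1R15A lies close to the threshold, and it passes under every tested alternative except the restriction to probe sets without an s or x suffix, which leaves all values as they are (adjusted p from 0.00368 to 0.0587). CHAC1, a glutathione-degrading enzyme under ATF4, read 6.17 and 5.88 in mock, 6.04 with the intact and 5.35 with the segmented duplex. It lay between the mock arrays with the intact and below both with the segmented duplex, by a change of -0.67 (adjusted p = 0.109).

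ASNS, asparagine synthetase and a classic ATF4 target, read 11.25 on both mock arrays against 11.21 and 11.17. The serine synthesis enzymes differed in sign, with PSAT1 at 10.23 and 10.40 in mock against 9.83 and 10.21, and PHGDH at 9.86 and 9.72 against 10.03 and 9.86. The intact change of PSAT1 was -0.49 (adjusted p = 0.0843) and that of PHGDH 0.24, and the latter turns to -0.0077 when arrays are centred. VLDLR, a lipoprotein receptor under ATF4, read 2.84 and 2.60 in mock and 2.77 with each duplex. Whether VLDLR was above background is not known, since the values carry no detection call here.

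The comparisons of each duplex with mock share the mock arrays, so their changes are only given side by side above. The direct difference, segmented minus intact at matched dose and time, passed for 0 genes of the set and for 0.0% of all genes by limma, with the lowest adjusted p at 0.181. At an unadjusted p under 0.05 there were 5 genes of the set, SEL1L, TRIB3, CHAC1, DDIT4 and KDELR3, and 3273 genes or 16.5% in all. KDELR3 was 1.63 higher with the segmented than with the intact duplex (95% interval 1.21 to 2.05, adjusted p = 0.181), and TRIB3 0.86 higher (0.46 to 1.26, adjusted p = 0.184).

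DDIT4 was lower with the segmented duplex by a log2 difference of -0.67 (-1.08 to -0.27, adjusted p = 0.205). The difference for DNAJB9 was 0.26 (-0.30 to 0.82), for HERPUD1 0.11 (-0.33 to 0.54), for HSPA5 0.028 (-0.36 to 0.42) and for KDELR1 0.069 (-0.37 to 0.51). These intervals include 0, and the 2 duplexes are not shown to act alike on these genes. The differences of KDELR3, TRIB3 and DDIT4 do pass when the dimmest 40% of genes are left out, with a trended and robust prior, and with log2(intensity + 16). For KDELR3 the adjusted p over the alternatives runs from 3.83e-07 to 0.181.

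The other genes of these pathways were taken from 5 lists of 163 genes in all, of which 156 were measured. With the intact duplex 25 were lower, 15 higher and 116 not called, which is 25.6% called, near the 24.9% of all genes. With the segmented duplex 5 were lower, 3 higher and 148 not called, 5.13%, near the 5.99% of all genes. When arrays are centred on their medians the called genes number 50 lower and 9 higher, then 13 lower and 2 higher, so the share higher goes from 37.5% in each to 15.3% and 13.3%. By list, in the order below, centring turns the intact splits into 6 lower and 1 higher, 10 and 2, 19 and 1, 5 and 3, and 10 and 2.

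In the list of 21 other sensors and transcription factors, 3 fell and 3 rose with the intact duplex. That list also holds genes of other kinds, such as BAX, which is among the risers. CREB3L2, an ATF6-like factor of the ER membrane, fell with both duplexes, with log2 changes of -1.45 and -1.15 (adjusted p = 0.00949 and 0.0371). The segmented change is lost with the mean of its probe sets, at -0.70 (adjusted p = 0.0619). EIF2AK3, the PERK sensor, fell by 0.90 with the intact duplex (adjusted p = 0.0182), and its segmented change was -0.42. BAX, a pore former of mitochondrial apoptosis, rose by 1.32 with the intact duplex (adjusted p = 0.0120), and its segmented change was 0.74. Of 28 other amino acid and ATF4 genes, 7 fell and 2 rose with the intact duplex, while PYCR1 alone was called with the segmented duplex.

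PYCR1, an enzyme of proline synthesis, had changes of -1.70 and -1.11 (adjusted p = 0.00885 and 0.0386). SLC7A1, a transporter of basic amino acids, changed by -1.68 with the intact duplex, and EIF4EBP1, a translation repressor under mTORC1, by -1.66 (adjusted p = 0.00865 and 0.00869). Of 43 other chaperones and foldases, 8 fell and 2 rose with the intact duplex, while 3 fell with the segmented duplex. DNAJC1, an ER J-domain protein, fell with both, at -2.39 and -2.26 (adjusted p = 0.00824 and 0.0349). TMX1, a membrane-bound thioredoxin-like isomerase, fell with both, at -1.95 and -1.43 (adjusted p = 0.00954 and 0.0386). CALU, a calcium-binding protein of the secretory pathway, fell by 1.64 with the intact duplex (adjusted p = 0.00897).

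Of 27 other degradation genes, 4 fell and 4 rose with the intact duplex, while RNF5 alone, higher, was called with the segmented duplex. The call of RNF5 is lost after centring and with the mean of its 2 probe sets, of which 1 read higher. EDEM3, a mannosidase relative of EDEM1, fell by 1.13 (adjusted p = 0.0144), and MAN1B1, an ER mannosidase, rose by 1.00 (adjusted p = 0.0219). NPLOC4, a cofactor of the ATPase that extracts proteins from the ER, fell by 1.32 (adjusted p = 0.0118), a call lost with the mean of its probe sets (adjusted p = 0.0604). Of 37 genes of COPI retrieval and cargo receptors, the route that KDEL receptors take, 3 fell and 4 rose with the intact duplex. Among the risers, COPZ1 is called lower with the mean of its probe sets. COPG2, a COPI coat subunit, rose with both, at 1.72 and 1.48 (adjusted p = 0.00885 and 0.0354). TMED7, a cargo receptor, fell by 0.98, and ARFGAP3, a GTPase activator of the COPI cycle, rose by 0.88 with the intact duplex (adjusted p = 0.0287 and 0.0188).

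**Figure D4:**
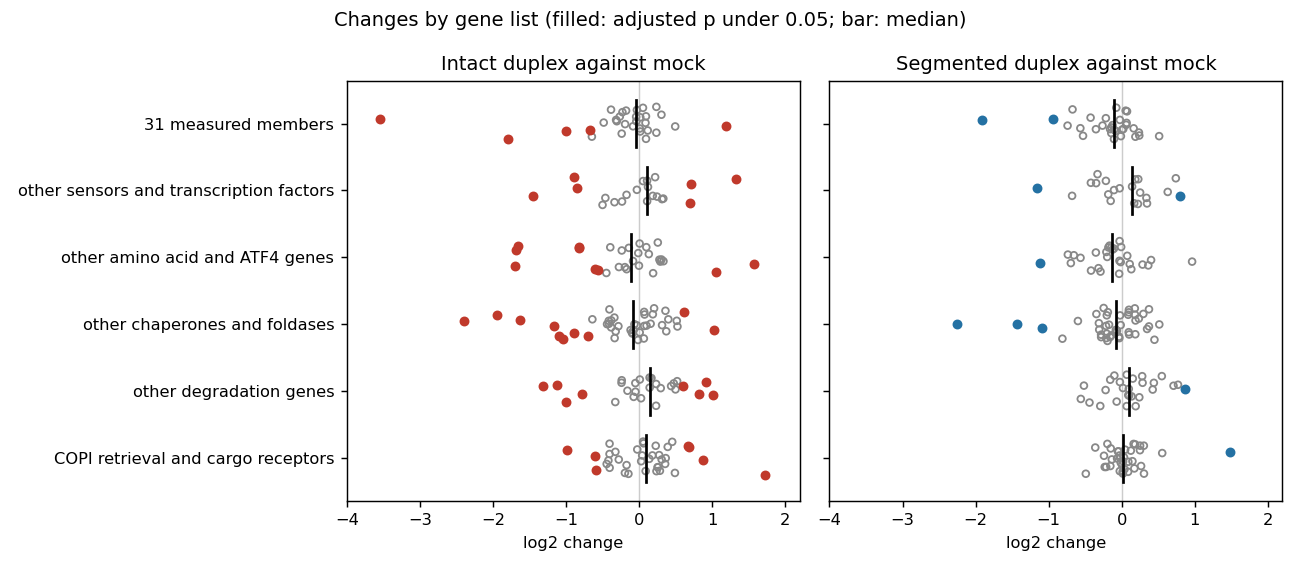
Log2 change from mock of every measured gene, by list, with the intact duplex on the left and the segmented duplex on the right; filled dots passed the adjusted p of 0.05 and the black bar is the list's median. The medians lie near 0, between -0.13 and 0.14 over both duplexes in the 5 further lists, while single genes such as KDELR3 at -3.54 and DNAJC1 at -2.39 lie far out.

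Grouped by promoter motif, none of the 7 genes with ERSE passed the test. Over all genes 24.9% were called with the intact and 5.99% with the segmented duplex. The motif groups hold too few genes for their calls to be compared. Changes of the ERSE genes ran from -0.24 to 0.49 with the intact and from -0.35 to 0.24 with the segmented duplex. HSPA5 and XBP1, whose sequences are printed above, are among them. Of the 2 measured genes with ERSE-II, HERPUD1 fell with the intact duplex, and HYOU1 did not pass. Of the 2 with UPRE, KDELR3 fell with both duplexes, while HYOU1 changed by -0.23 and -0.13 and did not pass with either. Of the 3 with CARE, HERPUD1 fell with the intact duplex, and ASNS and CHAC1 did not pass. TRIB3, DNAJB9 and DDIT4 were called and held none of the 4 motifs in the window.

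**Figure D5:**
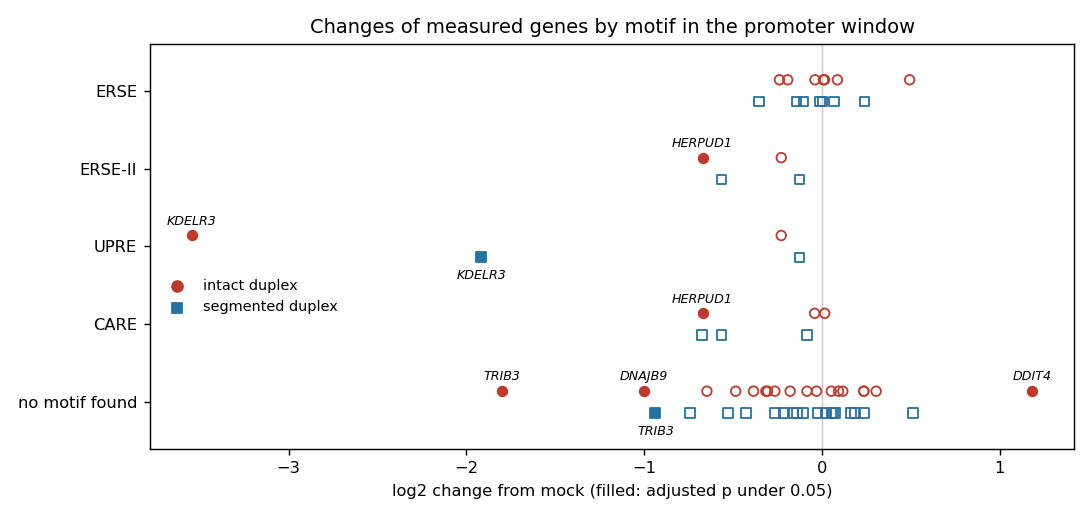
Log2 change from mock of the measured genes by the motif found in their promoter window, with circles for the intact and squares for the segmented duplex; a gene with 2 motifs is drawn in both rows, and called genes are filled and named. The 7 ERSE genes sit between -0.35 and 0.49. The called genes sit in the other rows, but the motif groups hold too few genes for their calls to be compared.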

How the data were processed

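The values deposited by the authors are linear intensities, 1 for each probe set on each array. Per the submitters' processing notes RMA made them, which corrects background, equalises the arrays' distributions and summarises probes (version not given in the sources used here). Log2 was taken of each intensity without a pseudocount. Of 52377 probe sets, 35184 had 1 gene in the platform annotation, 374 several and 16819 were not listed; the last 2 kinds entered no result. Symbols were updated through Entrez identifiers to RefSeq (GRCh38.p14), with 35134 matched and 50 not. The probe set with the highest mean over 4 arrays stood for each of 8731 genes with several. Coordinates are those of the RefSeq promoter table, since the array values name no build.

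The members and lists were chosen with earlier results of these data known. All members are named; of each further list, up to 3 called genes with the largest intact change. The test was limma 3.58.1 (R 4.3.3) on log2 values, fitting 3 group means over all 4 arrays, with eBayes and Benjamini-Hochberg adjustment over 19798 genes. The procedure was run on simulated data in which all 4 arrays varied alike. That run therefore cannot test whether treated arrays vary as the mock arrays do. The 1 residual degree of freedom comes from the mock pair (prior 2.89), so p-values measure only the spread between mock arrays, which may be technical, and each treated array, alone in its group, is taken to vary as they do. The number of arrays limits the precision. Alternatives were a further quantile normalization, centring on medians, leaving out the dimmest 40% of genes, a trended and robust prior, the mean of probe sets, probe sets without an s or x suffix, log2(intensity + 16), and leaving out each mock array.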

Additional observations from a re-analysis of the deposited data

How the results depend on the processing

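The 5 calls of members with the intact and the 2 with the segmented duplex kept their direction and side of the threshold under every alternative with a test, and their direction without either mock array, where no residual degree of freedom is left and values have no test. The probe sets of named genes carry no s or x suffix, so that alternative changed nothing. Further members passed only under alternatives. With the intact duplex ERN1, MANF and PSAT1 were lower with centring, dim genes out, trended prior and log2(intensity + 16). DNAJC3 was lower with centring and trended prior, and HYOU1, DNAJB11 and SEL1L with trended prior. ATF6 (dim genes out, trended prior) and CALR (trended prior) were higher. With the segmented duplex CHAC1 was lower in all these settings, DNAJC3, CRELD2 and PPP1R15A in all but centring, and PDIA6 higher with trended prior. The cause of the shifts below was not tested, beyond the lower scale that centring itself sets. No paired analysis was possible because each duplex has 1 array and shares no set of replicate numbers with mock.

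In the order centring, dimmest 40% left out, trended prior, log2(intensity + 16), members called lower with the intact duplex number 9, 8, 12 and 8, and with the segmented duplex 4, 8, 8 and 8. Members higher with the intact duplex number 2 (dim genes out) and 3 (trended prior), and with the segmented duplex 1, 2 and 1 in the last 3. Segmented against intact, in those 3, gives 2, 2 and 1 members lower and 2, 3 and 2 higher, and 1850, 2412 and 1138 of all genes. All genes called number 7809 with the intact duplex (trended prior) and 1849, 4781, 5415 and 4279 with the segmented duplex in the order above. The further pathway genes number 50, 45, 52 and 44 lower and 9, 29, 41 and 26 higher with the intact duplex. With the segmented duplex they number 13, 21, 32 and 17 lower, 9 lower with the mean of probe sets, and 18, 24 and 15 higher in the last 3.

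Members 1.5-fold lower with the segmented duplex number 5 after quantile normalization and 7 after centring. Leaving out a mock array gives 3 to 6 of these, and 1 to 2 higher and 4 to 5 lower with the intact duplex. The intact median over members is -0.11 after quantile normalization, -0.28 after centring and -0.13 with the mean of probe sets, and -0.12 to -0.043 without a mock array. The segmented median is -0.30 after centring and -0.13 to -0.066 without a mock array.

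Signs were followed for the members and for the further pathway genes called with the intact duplex. Other pathway genes with small changes may turn sign as well and are not listed. Among those followed, uncalled changes that turned sign after centring were, with the intact duplex, HSP90B1 -0.16, CANX -0.23, PDIA3 -0.15, PDIA4 -0.15, PDIA6 -0.23, EDEM1 -0.0077, CHAC1 -0.23, PHGDH -0.0077, VLDLR -0.19 and KDELR1 -0.13. With the segmented duplex they were XBP1 -0.19, CEBPB -0.17, CANX -0.13, PDIA4 -0.13, SEL1L -0.030, PHGDH -0.12, VLDLR -0.14, KDELR1 -0.0061, ARFGAP3 -0.0086 and CBS -0.084. Quantile normalization turned HSP90B1 to -0.10 and CHAC1 to -0.19 (intact) and QSOX1 to 0.0013 (segmented). The mean of probe sets turned HSPA5 to 0.065, HSP90B1 to -0.29, CANX to -0.37 and the called COPZ1 to -1.57 (intact), and ERN1 to 0.11, CANX to -0.20, COPZ1 to -0.55, CREBRF to -0.024 and MESD to 0.050 (segmented).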

Other observations

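Further genes of the pathway lists passed the limma test with the intact duplex and were chosen here after their values were seen. In amino acid supply, MTHFD2, a mitochondrial folate enzyme, read 11.57 and 11.54 in mock, 10.73 with the intact and 10.86 with the segmented duplex, an intact change of -0.82 (adjusted p = 0.0206). STC2, a secreted glycoprotein under ATF4, changed by -0.83 (adjusted p = 0.0220), and SESN2, a sestrin that senses leucine, by 1.57 (adjusted p = 0.0107). SESN2 read 8.75 and 8.54 in mock, 10.22 with the intact and 9.61 with the segmented duplex. Both treated arrays lay above the mock pair.

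In ER-associated degradation, SYVN1, the ligase that SEL1L and HERPUD1 work with, read 8.92 and 8.71 in mock, 7.81 with the intact and 8.29 with the segmented duplex. Its intact change was -1.0 (adjusted p = 0.0215), and SELENOS, a selenoprotein of the same machinery, changed by -0.78 (adjusted p = 0.0314). Other degradation genes rose with the intact duplex, EDEM2 by 0.82, FOXRED2 by 0.92 and UBXN6 by 0.60. The rise of UBXN6 no longer passed after centring, and that of FOXRED2 after quantile normalization. SUMF1, an enzyme that activates sulfatases in the ER, read 10.83 and 10.89 in mock, 9.76 with the intact and 11.23 with the segmented duplex. It was below both mock arrays with the intact (-1.10, adjusted p = 0.0128) and above both with the segmented duplex (0.37, not called). COPZ1, a COPI coat subunit called higher with the intact duplex at 0.67 (adjusted p = 0.0331), was called lower at -1.57 with the mean of its probe sets (adjusted p = 0.00642), so its direction depends on the probe set.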
